A study of Mus musculus with 9 samples.

Results

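Mitosis genes encode the proteins that take a cell from the end of G2 through chromosome segregation to the parting of the daughter cells. They were followed here in cells sorted from the tracheal epithelium of mice, the pseudostratified lining of the windpipe. A list of 44 such genes was used, and 43 of them had a probe set in the platform annotation among the 18193 genes measured. Ccnb1 had no probe set under that symbol and was not analysed here. Each gene was read from 1 probe set, the one with the highest mean over the 9 arrays, and all 43 lay above the background level of 3.56 on all 9 arrays. That level, like every level given here, is a log2 signal. It was set from 80 probe sets of olfactory and vomeronasal receptor genes, which should be silent in this tissue. Of their signals, pooled over the 9 arrays, 95% lay below it.

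All animals were hemizygous for a KRT5-GFP transgene, in which the keratin 5 promoter drives green fluorescent protein (GFP), so the reporter was carried by the animals behind every group. Fluorescence and binding of the isolectin GSI-A3B split the sorted cells into 3 gates with 3 biological replicates each. The GFP+ gate held GFP+ lectin+ cells and the lectin-only gate held GFP- lectin+ cells, and the labels call both basal cells. The columnar gate held GFP- lectin- cells, which the labels call columnar epithelium. The labels give no treatment, age or sex, and do not say whether a replicate came from 1 animal or from a pool. The comparisons ask how far each population carries the transcripts of dividing cells, since basal cells are known as the progenitors of this epithelium.

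As background, entry into mitosis is driven by the kinase Cdk1 with its A- and B-type cyclins, and by the Plk and Aurora kinases. The spindle checkpoint holds back the anaphase-promoting complex, a ubiquitin ligase, until every kinetochore is attached to microtubules. Cdc20 then activates that ligase, securin and cyclin B are destroyed, the chromatids part, and the central spindle and a contractile ring divide the cell. Most of these genes are transcribed late in the cell cycle. In G1 and G0 the DREAM complex, built on MuvB proteins, holds them down through a promoter element called the cell cycle genes homology region (CHR), and later B-Myb and Foxm1 join MuvB to activate them. CCAAT boxes, which NF-Y binds, often lie upstream of the CHR. In the resting adult airway epithelium few cells divide, and basal cells are among those that do.

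Promoters are shown because the genes are known for a shared promoter layout. RefSeq promoters (GRCm38.p6) of 300 bases, from 250 before to 50 after the start of transcription, were used for 35 of the 43 genes. Aurkb, Ccna2, Foxm1, Incenp, Smc4 and Tpx2 had no promoter entry. Cdc25c and Kif20a were left out by a filter on their chromosome, which was not applied to the promoters of all genes on the array. The CHR was searched as TTTGAA or TTCGAA and the CCAAT box as CCAAT, both on both strands, and positions count from the start site, which is 1. Below, the capitals mark these matches, written 5′ to 3′ along the gene's strand. Shown are 4 genes that were higher in both lectin-binding gates and carry both motifs: Ccnb2 (chr9:70421505-70421804, minus strand), Cdc20 (chr4:118437294-118437593, minus strand), Prc1 (chr7:80294201-80294500, plus strand) and Kif23 (chr9:61946750-61947049, minus strand). Birc5 (chr11:117848987-117849286, plus strand) was also higher in both gates and carries neither, and is shown for contrast.
Ccnb2: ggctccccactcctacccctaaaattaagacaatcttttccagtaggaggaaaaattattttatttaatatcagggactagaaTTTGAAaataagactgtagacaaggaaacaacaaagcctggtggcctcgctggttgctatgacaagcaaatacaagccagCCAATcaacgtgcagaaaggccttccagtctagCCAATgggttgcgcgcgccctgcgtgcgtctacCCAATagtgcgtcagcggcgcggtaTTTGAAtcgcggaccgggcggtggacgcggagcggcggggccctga
Cdc20: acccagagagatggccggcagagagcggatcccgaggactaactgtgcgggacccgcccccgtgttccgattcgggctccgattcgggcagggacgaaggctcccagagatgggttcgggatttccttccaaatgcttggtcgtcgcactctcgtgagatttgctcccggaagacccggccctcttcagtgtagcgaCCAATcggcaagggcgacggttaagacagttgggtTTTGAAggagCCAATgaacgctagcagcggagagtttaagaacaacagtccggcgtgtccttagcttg
Prc1: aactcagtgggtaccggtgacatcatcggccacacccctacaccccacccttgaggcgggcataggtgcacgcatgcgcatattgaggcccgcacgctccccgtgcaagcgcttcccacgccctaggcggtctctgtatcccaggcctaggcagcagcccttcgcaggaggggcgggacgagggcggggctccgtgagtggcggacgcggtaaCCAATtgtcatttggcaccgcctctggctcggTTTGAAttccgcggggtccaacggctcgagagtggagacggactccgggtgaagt
Kif23: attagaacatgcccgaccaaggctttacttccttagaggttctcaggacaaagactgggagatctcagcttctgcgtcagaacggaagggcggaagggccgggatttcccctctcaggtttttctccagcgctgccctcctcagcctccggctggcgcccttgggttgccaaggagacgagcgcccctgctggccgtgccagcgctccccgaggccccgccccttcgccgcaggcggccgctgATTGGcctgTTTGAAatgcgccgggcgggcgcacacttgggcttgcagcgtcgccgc
Birc5: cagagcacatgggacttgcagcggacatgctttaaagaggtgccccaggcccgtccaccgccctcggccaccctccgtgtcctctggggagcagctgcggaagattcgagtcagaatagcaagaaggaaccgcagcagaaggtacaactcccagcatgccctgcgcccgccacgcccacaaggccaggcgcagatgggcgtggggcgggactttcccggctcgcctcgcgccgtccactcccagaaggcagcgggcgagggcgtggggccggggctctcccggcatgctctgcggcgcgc
In Ccnb2, 3 CCAAT boxes begin at -87, -54 and -21, followed by a CHR at 5, and another CHR match lies at -167. In Cdc20 the CHR begins at -18, between CCAAT boxes at -53 and -8. The Prc1 window has a CCAAT box at -37 and a CHR at -5. In Kif23 the CCAAT box lies on the opposite strand, so that it reads ATTGG at -7, and the CHR begins at 3.

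A CHR match was present in 27 of the 35 promoters (77.1%), against 15.1% of the 14368 promoters of genes on the array. CCAAT was present in 25 (71.4%), against 38.2%, and both motifs in 24 (68.6%), against 6.14%. In 16 (45.7%) CCAAT occurred 2 or more times, against 13.5%. The CHR began within 50 bases of the start site in 24 (68.6%), against 3.80%, a window set after the positions had been seen. No member had a CHR and a CCAAT box that shared bases. The E2F motif GCGGGAA, typical of genes of the G1 to S transition, was found in 1 promoter (2.86%), against 6.97%. Of the members higher in the GFP+ gate than in the columnar gate, 19 of the 22 with a promoter used here (86.4%) had a CHR match. Of the members not called there, 8 of the 13 with a promoter used here (61.5%) did. These shares describe letters in a window and were not tested.

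Basal markers were highest in the GFP+ gate and ciliated markers in the columnar gate. On the GFP+ arrays Krt5 averaged 13.43 ± 0.01, on the lectin-only arrays 12.88 ± 0.15 and on the columnar arrays 7.95 ± 1.12 (SD, n = 3 each). The summed linear signal of 9 basal markers was 47128 to 50548 on GFP+ arrays, 28116 to 33698 on lectin-only arrays and 2789 to 3591 on columnar arrays. That of 9 ciliated markers was 3175 to 5045 on GFP+ arrays, 4334 to 5727 on lectin-only arrays and 10277 to 11740 on columnar arrays. The sum of 7 secretory markers overlapped between the lectin-binding gates, at 58410 to 70553 in the GFP+ gate and 68744 to 77359 in the lectin-only gate, and was 82619 to 94826 in the columnar gate. A list of 12 leukocyte markers summed to 1339 to 4247 on GFP+ arrays, 17740 to 26616 on lectin-only arrays and 552 to 1178 on columnar arrays, and none of the 12 lay under background on all arrays of a gate. Ptprc, which encodes the leukocyte protein CD45, averaged 5.41 ± 0.87 on GFP+ arrays, 8.95 ± 0.72 on lectin-only arrays and 3.25 ± 0.98 on columnar arrays (SD, n = 3 each). The sum of 5 endothelial markers was 54 to 66 on GFP+ arrays, 99 to 169 on lectin-only arrays and 39 to 46 on columnar arrays, where Cdh5, Kdr and Emcn lay under background throughout, as Cdh5 did on the GFP+ arrays. That of 6 fibroblast markers was 2071 to 3137 on GFP+ arrays, 759 to 1201 on lectin-only arrays and 637 to 776 on columnar arrays, with Lum under background on every array. Dcn was the 1 fibroblast marker called higher in the GFP+ gate than in the columnar gate, by 4.36, while Col1a1, Col1a2 and Col3a1 were called lower. Replicate 3 of the lectin-only gate stood apart, with a median signal of 5.44 against 4.91 to 5.16 on the other 8 arrays, and with 73.0% of probe sets above background against 65.3% to 66.3%.

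**Figure D1:**
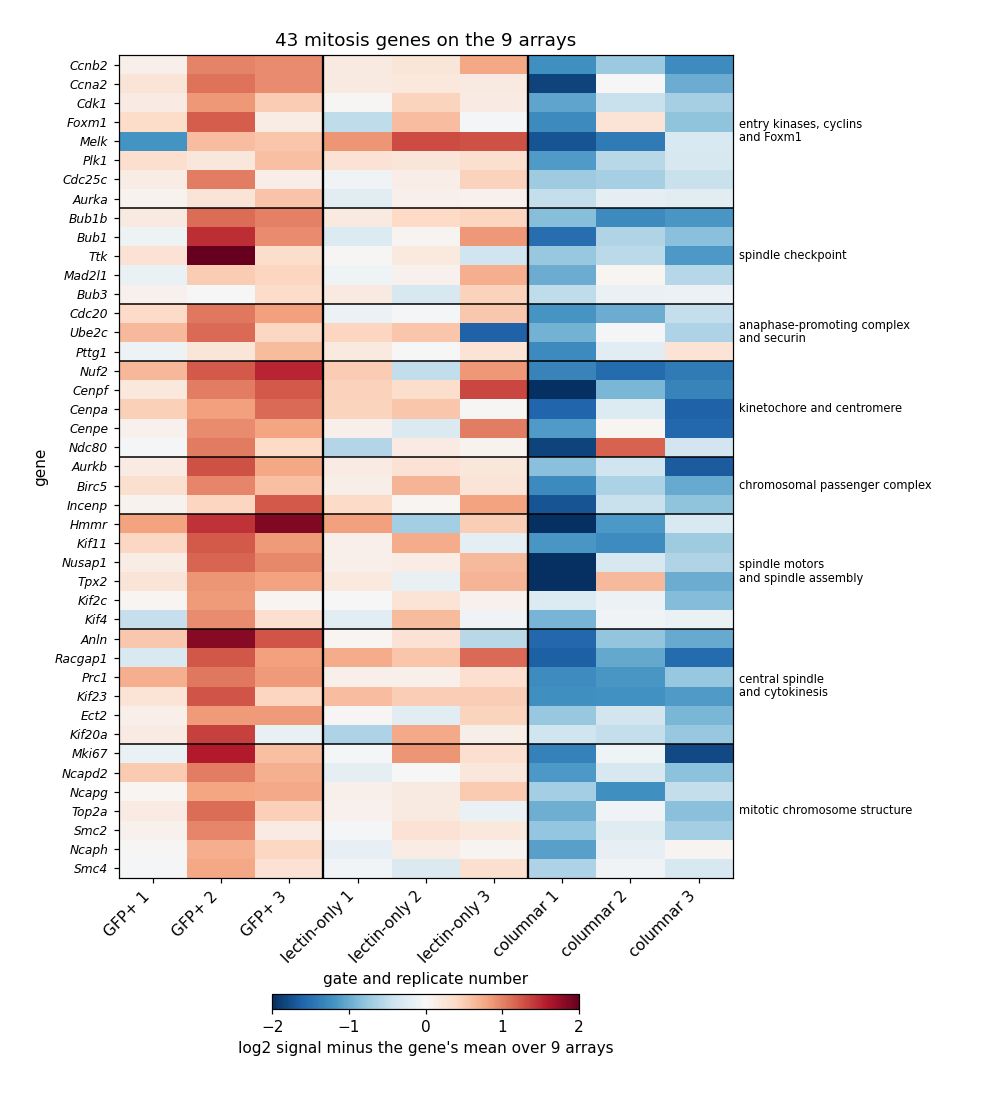
Log2 signal of the 43 mitosis genes (rows, in blocks by role) on the 9 arrays (columns, by gate and replicate number), shown as the difference from each gene's mean over the 9 arrays, with the colours held at -2 and 2. The columnar arrays are blue for most genes, and GFP+ replicate 1 is paler than GFP+ replicates 2 and 3.

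In the GFP+ gate most of the mitosis genes were higher than in the columnar gate. A gene was called where limma's adjusted p was under 0.05 and the difference was at least 2-fold, which is 1 on the log2 scale. The test found 26 of the 43 genes higher and 0 lower, against a background of 5.88% of all 18193 genes called higher and 5.33% called lower. All 43 differences lay above 0, against 46.2% of all genes. Their median was 1.52, against -0.04 over all genes, and they ran between 0.41 for Bub3 (1.33-fold) and 2.94 for Hmmr (7.67-fold). The arrays of the gates did not overlap, with the GFP+ arrays higher, for 34 of the 43, against 15.8% of all genes. An unadjusted p under 0.05 was reached by 38 of them, against 13.1% of all genes higher at that level. Smc2, a condensin subunit, passed the adjusted p (0.0358) at 0.98 ± 0.26, just under 2-fold. Leukocyte markers were also higher in the GFP+ gate, with 6 of 12 called, all 12 differences above 0 and a median of 1.77, and their part in the result was not tested. In sorted bulk RNA, a larger share of dividing cells and more of these transcripts per cell cannot be told apart. With 1 array left out, between 19 and 30 genes were called.

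In the lectin-only gate the same comparison with the columnar gate called fewer genes. It called 13 of the 43 higher and 0 lower, against 6.47% and 2.38% of all genes. These were Birc5, Bub1b, Ccnb2, Cdc20, Cenpa, Cenpf, Kif11, Kif23, Melk, Ncapg, Nuf2, Prc1 and Racgap1. All 43 differences lay above 0, against 59.0% of all genes, with a median of 1.04 (all genes 0.07) and a range of 0.23 for Ndc80 to 2.29 for Melk. The lectin-only arrays lay above the columnar arrays without overlap for 28 genes, against 16.0% of all genes. The count of 13 was 8 without lectin-only replicate 2 or without columnar replicate 1, and was 10 without lectin-only replicate 3, the array that stood apart. With arrays centred on their medians it was 9. Both comparisons use the same 3 columnar arrays. The leukocyte and endothelial marker sums given above move with this gate. Of the 12 leukocyte markers, 10 were called higher and all 12 lay above 0, with a median difference of 4.97. Of the 5 endothelial markers, 2 were called higher and all 5 lay above 0, with a median difference of 1.31. The part of these markers in the result was not tested.

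Among the genes of mitotic entry, 5 of 8 were higher in the GFP+ gate and 2 of 8 in the lectin-only gate. The shares of all genes were 5.88% and 6.47%. Ccnb2, which encodes the B-type cyclin B2 (probe set 1450920_at), had log2 signals of 7.89, 8.77 and 8.72 on the GFP+ arrays, 7.96, 8.02 and 8.55 on the lectin-only arrays and 6.55, 7.04 and 6.53 on the columnar arrays. Every array of the lectin-binding gates lay above every columnar array. The difference from the columnar gate was 1.75 ± 0.29 (SE, adjusted p = 0.00263) for the GFP+ gate and 1.47 ± 0.29 (adjusted p = 0.00921) for the lectin-only gate. Its kinase Cdk1 had 8.84, 9.54 and 9.18 on the GFP+ arrays, 8.70, 9.12 and 8.84 on the lectin-only arrays and 7.63, 8.24 and 8.02 on the columnar arrays. The columnar arrays were again the lowest. Cdk1 differed by 1.23 ± 0.24 in the GFP+ gate (adjusted p = 0.00712) and by 0.92 ± 0.24 in the lectin-only gate, where it passed the adjusted p (0.0364) below 2-fold. Plk1, a kinase of centrosome maturation and cytokinesis, lay likewise at 1.06 ± 0.22 in the GFP+ gate (adjusted p = 0.0112) and at 0.95 ± 0.22 in the lectin-only gate (adjusted p = 0.0240, below 2-fold). Ccna2, cyclin A2, and Cdc25c, the phosphatase that activates Cdk1, were higher in the GFP+ gate by 1.71 ± 0.41 and 1.04 ± 0.26. They lay at 1.13 and 0.78 in the lectin-only gate, where they were not called. Their other probe sets, 1417911_at and 1422252_a_at, were called in neither gate. In the GFP+ gate these lay at 1.31 ± 0.45 and 1.09 ± 0.30 (adjusted p over all probe sets = 0.108 and 0.0505). Aurka, a kinase of the spindle poles, was not called in the GFP+ gate (0.59 ± 0.19) or in the lectin-only gate (0.29 ± 0.19).

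Foxm1, the transcription factor of late cell cycle genes, was not called from its chosen probe set, at 1.18 ± 0.45 in the GFP+ gate and 0.64 ± 0.45 in the lectin-only gate. Of its other probe sets, 1448834_at was called in both, at 2.10 ± 0.26 in the GFP+ gate and 1.33 ± 0.26 in the lectin-only gate. That probe set averaged 3.57 in the columnar gate, about the background level, and was above background on 7 of the 9 arrays. Probe set 1448833_at, above background on all 9 arrays, was not called, at 0.66 and 0.12. Melk, a kinase gene transcribed in dividing cells, had 6.85, 8.67 and 8.60 on the GFP+ arrays, 8.93, 9.36 and 9.32 on the lectin-only arrays and 6.33, 6.64 and 7.75 on the columnar arrays. The lectin-only arrays were the highest of the 9, and the lowest GFP+ array lay within the columnar range. Melk was higher in the lectin-only gate than in the columnar gate by 2.29 ± 0.51 (adjusted p = 0.0173) and was not called in the GFP+ gate (1.13 ± 0.51, adjusted p = 0.201).

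Of the 5 spindle checkpoint genes, 3 were higher in the GFP+ gate and 1 in the lectin-only gate, against 5.88% and 6.47% of all genes. Bub1b encodes BubR1, the checkpoint protein that binds and inhibits Cdc20. Its signal was 6.84, 7.78 and 7.67 on the GFP+ arrays, 6.84, 7.06 and 7.09 on the lectin-only arrays and 5.81, 5.39 and 5.50 on the columnar arrays. No columnar array reached the lectin-binding gates, and the differences were 1.86 ± 0.26 (adjusted p = 0.00108) for the GFP+ gate and 1.43 ± 0.26 (adjusted p = 0.00634) for the lectin-only gate. The checkpoint kinases Bub1 and Ttk were higher in the GFP+ gate by 1.77 ± 0.44 and 1.70 ± 0.42, with adjusted p = 0.0246 for each. Ttk read 6.19, 7.88 and 6.25 on the GFP+ arrays, 5.92, 6.09 and 5.49 on the lectin-only arrays and 5.14, 5.36 and 4.74 on the columnar arrays, so GFP+ replicate 2 stood above its fellow arrays. Mad2l1, the Mad2 protein that captures Cdc20, and Bub3, the scaffold of the Bub kinases, were not called in the GFP+ gate (0.78 ± 0.32 and 0.41 ± 0.23) or in the lectin-only gate (0.75 ± 0.32 and 0.37 ± 0.23).

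Cdc20, the activator of the anaphase-promoting complex, was higher in both gates. It had 9.42, 10.09 and 9.86 on the GFP+ arrays, 8.92, 9.0 and 9.57 on the lectin-only arrays and 7.85, 8.04 and 8.55 on the columnar arrays. The 3 gates formed steps, with lectin-only replicate 3 reaching into the GFP+ range. The difference was 1.64 ± 0.27 in the GFP+ gate (adjusted p = 0.00265) and 1.02 ± 0.27 in the lectin-only gate (adjusted p = 0.0402), close to the 2-fold threshold. Its other probe sets, 1416664_at and 1439394_x_at, were called in the GFP+ gate at 1.22 and 1.20 and not in the lectin-only gate, at 0.54 and 0.76. Ube2c, the ubiquitin-conjugating enzyme of the complex, read 9.73, 10.22 and 9.49 on the GFP+ arrays, 9.51, 9.63 and 7.47 on the lectin-only arrays and 8.14, 9.06 and 8.47 on the columnar arrays. Lectin-only replicate 3 was the lowest of all 9 for it, and the gene was not called in the GFP+ gate (1.26 ± 0.53) or in the lectin-only gate (0.31 ± 0.53). Without that array, Ube2c was called in the GFP+ gate at 1.26 ± 0.27 (adjusted p = 0.0168), and with the lectin-only gate left out of the fit at 1.26 ± 0.29 (adjusted p = 0.0323). Pttg1, securin, the inhibitor that the complex destroys, was not called, at 0.67 ± 0.36 in the GFP+ gate and 0.57 ± 0.36 in the lectin-only gate.

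**Figure D2:**
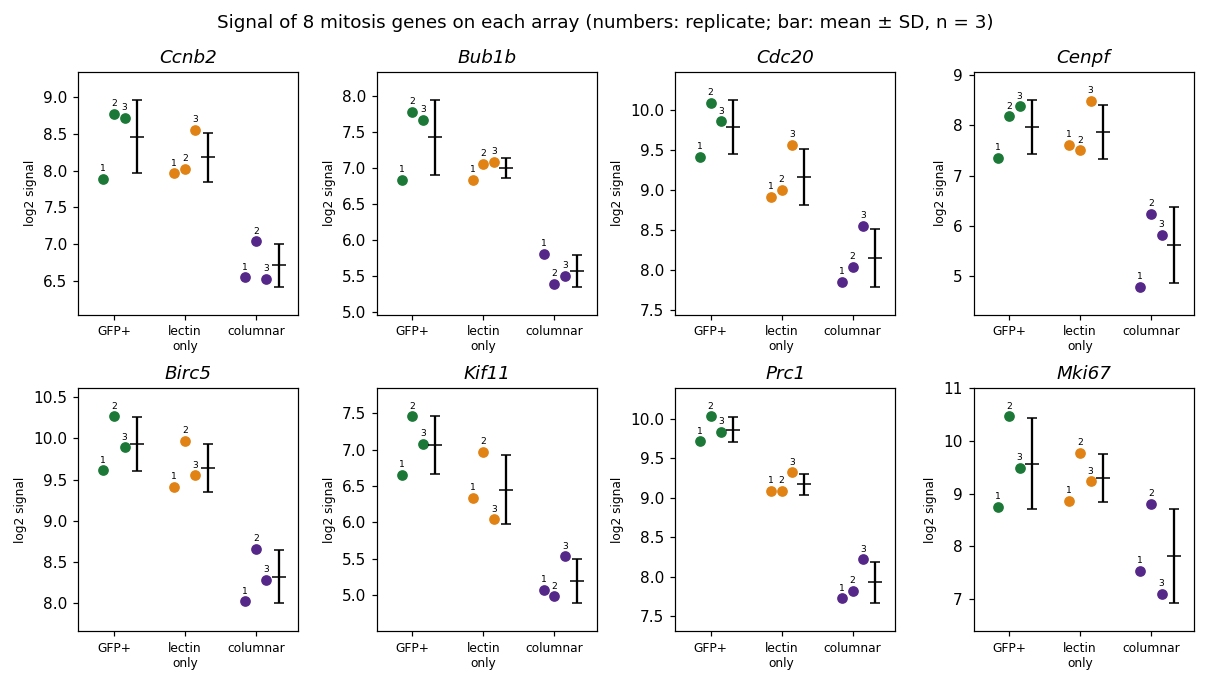
Log2 signal (vertical axes, each with its own range and not starting at 0) of 8 mitosis genes on each array of the GFP+, lectin-only and columnar gates, with points numbered by replicate and bars for mean ± SD (n = 3). The columnar arrays lie below the arrays of both other gates for 7 of the 8 genes, and for Mki67 columnar replicate 2, at 8.81, lies above GFP+ replicate 1, at 8.75.

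Kinetochore and centromere genes had the highest median difference of the 8 role groups in both comparisons, 1.97 in the GFP+ gate and 1.50 in the lectin-only gate. In each comparison 3 of 5 were called higher, against 5.88% and 6.47% of all genes. Nuf2, a subunit of the Ndc80 complex that grips microtubules, had 6.66, 7.23 and 7.53 on the GFP+ arrays, 6.50, 5.50 and 6.86 on the lectin-only arrays and 4.67, 4.46 and 4.59 on the columnar arrays. The columnar arrays lay close together near the bottom, and lectin-only replicate 2 was the array nearest to them. Nuf2 differed by 2.57 ± 0.34 in the GFP+ gate (adjusted p = 8.65e-04) and by 1.71 ± 0.34 in the lectin-only gate (adjusted p = 0.0107). Cenpf, a large protein of the outer kinetochore, had 7.36, 8.18 and 8.38 on the GFP+ arrays, 7.61, 7.50 and 8.49 on the lectin-only arrays and 4.78, 6.24 and 5.82 on the columnar arrays. The lectin-binding gates covered almost the same range, well above the columnar arrays. Its differences were 2.36 ± 0.43 (adjusted p = 0.00486) in the GFP+ gate and 2.25 ± 0.43 (adjusted p = 0.00824) in the lectin-only gate. Cenpa, the histone H3 variant of the centromere, was higher by 1.97 ± 0.36 in the GFP+ gate and 1.50 ± 0.36 in the lectin-only gate. Cenpe, the kinetochore kinesin, was not called (1.50 ± 0.46 in the GFP+ gate, adjusted p = 0.0608, and 1.17 ± 0.46 in the lectin-only gate). Ndc80, the partner of Nuf2, read 5.70, 6.76 and 6.13 on the GFP+ arrays, 5.14, 5.89 and 5.80 on the lectin-only arrays and 3.87, 6.91 and 5.35 on the columnar arrays. Its columnar arrays ran past both ends of the other gates, and it was not called.

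The chromosomal passenger complex corrects faulty attachments and later guides cytokinesis. Each of its 3 genes in the list studied here was higher in the GFP+ gate. Of these, Birc5 alone was called in the lectin-only gate. Birc5, survivin, had 9.61, 10.27 and 9.89 on the GFP+ arrays, 9.41, 9.97 and 9.55 on the lectin-only arrays and 8.02, 8.66 and 8.28 on the columnar arrays. Replicate 2 was the highest in each gate, and the gates with lectin did not overlap the columnar gate. The differences were 1.61 ± 0.25 (adjusted p = 0.00199) in the GFP+ gate and 1.32 ± 0.25 (adjusted p = 0.00763) in the lectin-only gate. Aurkb, the kinase of the complex, differed by 1.71 ± 0.35 in the GFP+ gate and Incenp, its scaffold, by 1.57 ± 0.39. In the lectin-only gate they lay at 1.19 ± 0.35 (adjusted p = 0.0615) and 1.40 ± 0.39 (adjusted p = 0.0503), and were not called. The chosen Incenp probe set, 1439436_x_at, has an identifier of the kind that can match transcripts of other genes. The chosen probe sets of Cdc20, Cdc25c, Foxm1 and Kif2c have identifiers of that kind too. For Incenp, 1423092_at gave a like difference in the GFP+ gate of 1.50 ± 0.37. Its other probe sets, 1439252_at, 1423093_at and 1441314_at, had differences of 0.91, 0.05 and -0.31, and none of these passed the adjusted p. In the mean of all its probe sets Incenp lay at 0.74 (adjusted p = 0.0467), under 2-fold.

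Of the 6 genes of spindle motors and spindle assembly, 3 were higher in the GFP+ gate and 1 in the lectin-only gate. The shares of all genes were 5.88% and 6.47%. Hmmr, a microtubule-associated protein of the spindle, had 8.42, 9.06 and 9.47 on the GFP+ arrays, 8.43, 6.94 and 8.10 on the lectin-only arrays and 4.35, 6.46 and 7.31 on the columnar arrays. Its columnar arrays were widely spread, and lectin-only replicate 2 lay among them. Hmmr had the largest difference of the 43 genes in the GFP+ gate, 2.94 ± 0.69 (adjusted p = 0.0185). It was not called in the lectin-only gate at 1.78 ± 0.69. Its probe set 1450156_a_at, also above background on all 9 arrays, was not called in the GFP+ gate (1.50 ± 0.43, adjusted p over all probe sets = 0.0568). The dimmer 1427541_x_at was called there at 1.75 ± 0.39. Probe sets 1429871_at and 1450157_a_at were above background on 0 arrays and were not called. Kif11, the kinesin that pushes spindle poles apart, had 6.65, 7.46 and 7.08 on the GFP+ arrays, 6.34, 6.97 and 6.04 on the lectin-only arrays and 5.07, 4.98 and 5.53 on the columnar arrays. The columnar arrays were below both other gates, and the differences were 1.87 ± 0.29 (adjusted p = 0.00222) in the GFP+ gate and 1.26 ± 0.29 (adjusted p = 0.0235) in the lectin-only gate. Nusap1, which bundles spindle microtubules, was higher in the GFP+ gate by 1.82 ± 0.48. Tpx2, an activator of Aurora A, read 8.11, 8.75 and 8.67 on the GFP+ arrays, 8.05, 7.71 and 8.54 on the lectin-only arrays and 5.53, 8.51 and 6.87 on the columnar arrays. Columnar replicate 2 lay inside the range of the other gates, and Tpx2 was not called (1.54 ± 0.61 in the GFP+ gate, adjusted p = 0.148, and 1.13 ± 0.61 in the lectin-only gate). The microtubule-depolymerising kinesin Kif2c and the chromosome-arm kinesin Kif4 were not called either, at 0.73 ± 0.27 and 0.65 ± 0.39 in the GFP+ gate and 0.53 ± 0.27 and 0.48 ± 0.39 in the lectin-only gate.

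Genes of the central spindle and of cytokinesis were called higher for 5 of 6 in the GFP+ gate and 3 of 6 in the lectin-only gate. Of all genes, 5.88% and 6.47% were called higher there. Prc1, which bundles the antiparallel microtubules of the central spindle, had 9.71, 10.03 and 9.83 on the GFP+ arrays, 9.09, 9.09 and 9.32 on the lectin-only arrays and 7.73, 7.82 and 8.22 on the columnar arrays. The arrays of the 3 gates fell into separate ranges with no overlap. Prc1 differed by 1.93 ± 0.19 in the GFP+ gate (adjusted p = 1.5e-04) and by 1.24 ± 0.19 in the lectin-only gate (adjusted p = 0.00256). Kif23 and Racgap1 encode the partners of centralspindlin, the kinesin and GTPase-activating complex at the midzone. Kif23 had 8.82, 9.81 and 8.97 on the GFP+ arrays, 9.16, 9.04 and 9.04 on the lectin-only arrays and 7.32, 7.33 and 7.41 on the columnar arrays. Racgap1 had 7.19, 8.74 and 8.31 on the GFP+ arrays, 8.24, 8.05 and 8.62 on the lectin-only arrays and 5.86, 6.46 and 5.95 on the columnar arrays. For both genes the lectin-binding gates overlapped each other and lay above the columnar gate. Kif23 differed by 1.84 ± 0.25 (adjusted p = 8.73e-04) in the GFP+ gate and 1.72 ± 0.25 (adjusted p = 0.00193) in the lectin-only gate, and Racgap1 by 1.99 ± 0.37 (adjusted p = 0.00557) in the GFP+ gate and 2.21 ± 0.37 (adjusted p = 0.00424) in the lectin-only gate. Ect2, the exchange factor that activates RhoA, was higher in the GFP+ gate by 1.28 ± 0.27 and lay at 0.76 ± 0.27 in the lectin-only gate. Anln, anillin, the scaffold of the contractile ring, had 7.67, 8.96 and 8.39 on the GFP+ arrays, 7.17, 7.42 and 6.58 on the lectin-only arrays and 5.56, 6.35 and 6.13 on the columnar arrays. Its 3 gates did not overlap, and it was called in the GFP+ gate (2.33 ± 0.36, adjusted p = 0.00198) and not in the lectin-only gate (1.04 ± 0.36, adjusted p = 0.112). Kif20a, a kinesin of the midzone, was not called (1.00 ± 0.43 in the GFP+ gate, adjusted p = 0.178, and 0.63 ± 0.43 in the lectin-only gate).

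Of the 7 genes of mitotic chromosome structure, 3 were higher in the GFP+ gate and 1 in the lectin-only gate. The shares of all genes were 5.88% and 6.47%. Mki67, the Ki-67 protein that coats mitotic chromosomes and is used as a label of cycling cells, had 8.75, 10.47 and 9.49 on the GFP+ arrays, 8.86, 9.77 and 9.23 on the lectin-only arrays and 7.53, 8.81 and 7.09 on the columnar arrays. Replicate 2 was the highest array of each gate, and the GFP+ and columnar ranges overlapped. Its difference of 1.76 ± 0.52 in the GFP+ gate just missed the threshold (adjusted p = 0.0501), and it was not called in the lectin-only gate at 1.48 ± 0.52 (adjusted p = 0.116). Top2a, the topoisomerase that untangles sister chromatids, was higher in the GFP+ gate by 1.22 ± 0.30 (adjusted p = 0.0232). Of the condensin subunits, Ncapd2 was higher in the GFP+ gate by 1.52 ± 0.24 and Ncapg by 1.33 ± 0.27, and Ncapg was also called in the lectin-only gate at 1.06 ± 0.27 (adjusted p = 0.0334). The condensin subunits Smc2, Smc4 and Ncaph were not called in the GFP+ gate, at 0.98, 0.68 and 0.78, or in the lectin-only gate, at 0.72, 0.33 and 0.41.

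**Figure D3:**
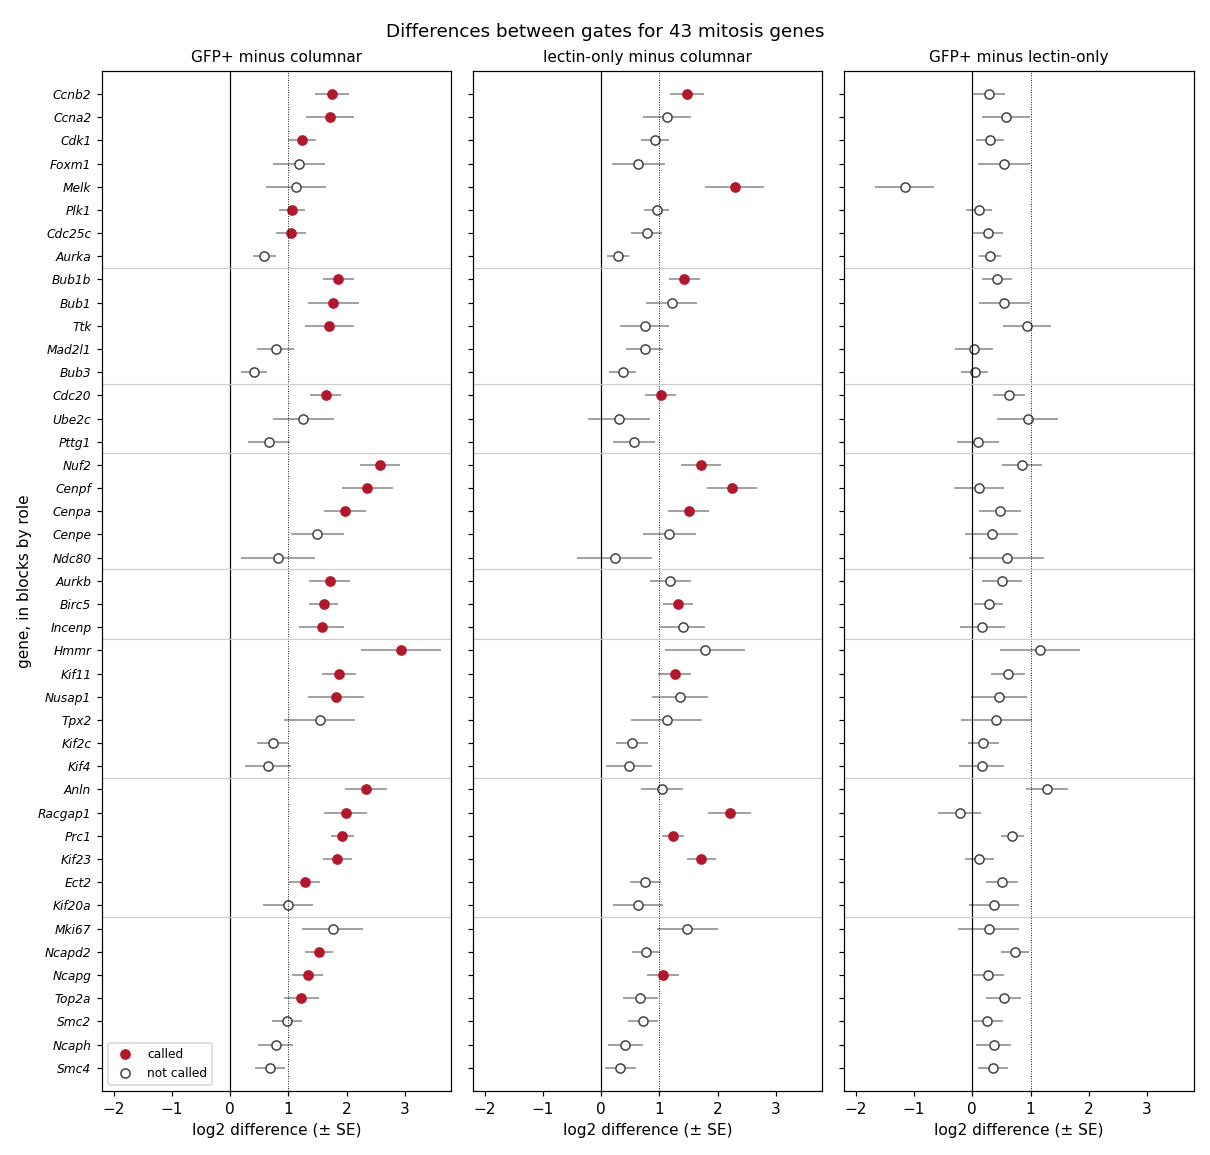
Log2 differences ± SE of the 43 mitosis genes (rows, in blocks by role) for GFP+ minus columnar, lectin-only minus columnar and GFP+ minus lectin-only, with filled points for called genes and a dotted line at 2-fold. In the first and second panels 26 and 13 genes are filled and all points lie right of 0, and in the third none is filled.

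Some calls depended on which arrays were included. In the GFP+ gate, 9 of the 26 calls were lost when 1 array was left out. Bub1, Incenp and Top2a were each lost without GFP+ replicate 2 or 3 or without columnar replicate 1 or 3, at differences of 1.41 to 1.85, 1.20 to 1.66 and 0.96 to 1.27. Ccna2 was lost without GFP+ replicate 2 or 3 or columnar replicate 3 (1.55 to 1.69), Nusap1 without GFP+ replicate 2 or 3 or lectin-only replicate 1 (1.62 to 1.82), and Cdc25c without GFP+ replicate 2 or columnar replicate 1 or 2 (0.75 to 1.01). Hmmr was lost without GFP+ replicate 2 or 3 (2.70 to 2.90), Ttk without columnar replicate 1 or 3 (1.52 to 1.73), and Plk1 without GFP+ replicate 3 or columnar replicate 1 (0.82 to 0.95, under 2-fold). In the lectin-only gate, 5 of the 13 calls were lost in this way. Cdc20 was lost without GFP+ replicate 3, without any 1 of the 3 lectin-only arrays, or without columnar replicate 1 or 2, at 0.81 to 1.14. Ncapg was lost without any 1 lectin-only array or without columnar replicate 1 or 2 (0.85 to 1.14). Kif11 was lost without lectin-only replicate 1 or 2 or columnar replicate 1 or 2 (1.00 to 1.31), Melk without lectin-only replicate 2 or 3 or columnar replicate 1 or 2 (2.01 to 2.24), and Cenpa without lectin-only replicate 1 or 2 or columnar replicate 1 or 3 (1.27 to 1.45). The highest adjusted p among these was 0.139, for Cdc20 without columnar replicate 1. Leaving out an array also added calls. In the GFP+ gate Tpx2 (2.31, adjusted p = 0.00773) and Foxm1 (1.62) were called without columnar replicate 2. Mki67 (2.17 to 2.26) and Smc2 (1.13 to 1.14) were called without GFP+ replicate 1 or columnar replicate 2. Cenpe was called without lectin-only replicate 3 or columnar replicate 2 (1.50 to 1.96), and Melk without GFP+ replicate 1 (1.73). Leaving out columnar replicate 2 added, for the lectin-only gate, Aurkb (1.47), Ccna2 (1.60), Cdk1 (1.06), Cenpe (1.64), Incenp (1.67), Mki67 (1.98) and Tpx2 (1.90). Aurkb was also called there without GFP+ replicate 1 (1.19), Incenp without GFP+ replicate 1 or 3 (1.40), and Plk1 without columnar replicate 3 (1.12).

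Between the GFP+ and lectin-only gates no mitosis gene was called by limma, 0 higher and 0 lower, against 0.896% and 2.84% of all genes. The differences lay above 0 for 41 of 43 genes, against 35.9% of all genes, with a median of 0.37 (all genes -0.10). An unadjusted p under 0.05 was reached by 5 genes with a positive and 1 with a negative difference, against 4.11% and 11.2% of all genes. The largest positive difference was that of Anln, 1.28 ± 0.36 (adjusted p = 0.0897), and Prc1 lay at 0.69 ± 0.19 (adjusted p = 0.0836). The genes below 0 were Melk, at -1.16 ± 0.51 (adjusted p = 0.311), and Racgap1, at -0.22 ± 0.37. GFP+ arrays lay above lectin-only arrays without overlap for 5 genes, against 5.24% of all genes, and below them for Melk, against 13.3%. The 95% interval of the difference reached 2-fold higher in the GFP+ gate for 27 of the 43 genes, so a difference of that size was not excluded for these. Leukocyte markers were lower in the GFP+ gate for 9 of 12, and their part in the result was not tested.

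Within the GFP+ and columnar gates, most mitosis genes shared their highest or lowest array. GFP+ replicate 1 was the lowest of its gate for 37 of the 43 genes, against 31.0% of all genes, and replicate 2 the highest for 33, against 28.4%. In the columnar gate replicate 2 was the highest for 28 genes, against 31.1% of all genes, and replicate 1 the lowest for 30, against 39.3%. Of the lectin-only arrays, replicate 2 was the highest for 20 genes and replicate 3 for 21, against 22.5% and 68.5% of all genes, and replicate 1 the lowest for 24, against 50.1%. The median deviations of the 43 genes from the gate mean were -0.41, 0.35 and 0.07 on GFP+ replicates 1 to 3, -0.16, -0.03 and 0.11 on lectin-only replicates 1 to 3 and -0.30, 0.32 and 0.01 on columnar replicates 1 to 3. Replicate 1 thus had the lowest median deviation in every gate, and replicate 2 the highest in the GFP+ and columnar gates. Whether the same number marks a shared source was not tested. Over all genes the median deviations lay between -0.02 and 0.02 in the GFP+ and columnar gates. They lay at -0.14 on lectin-only replicate 1 and at 0.24 on lectin-only replicate 3. The median SD of the 43 genes was 0.47 on GFP+ arrays (0.22 over all genes), 0.30 on lectin-only arrays (0.33 over all genes) and 0.42 on columnar arrays (0.22 over all genes).

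**Figure D4:**
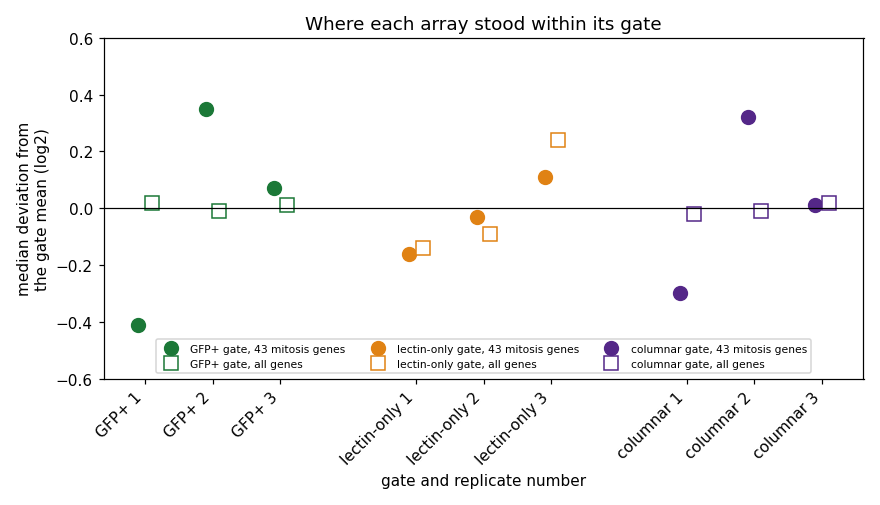
Median deviation from the gate mean (log2 signal, vertical axis) on each array (horizontal axis, by gate and replicate number), with circles for the 43 mitosis genes and squares for all genes. The circles run from -0.41 to 0.35 in the GFP+ gate and from -0.30 to 0.32 in the columnar gate, where the squares lie near 0.

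The 43 genes had 101 probe sets in all, and 30 genes had several. In a fit over all probe sets, 41 of the 101 were higher and 0 lower for GFP+ against columnar, against 4.70% and 3.87% of all probe sets. Of the 58 probe sets that had not been chosen to stand for their gene, 15 were called higher, and 10 of these were among the 27 above background on all arrays. In the lectin-only gate 17 of the 101 were called higher, against 4.73% of all probe sets, and 5 of the 58. Between the GFP+ and lectin-only gates 1 probe set was called higher, against 0.601%: 1458447_at of Cenpf, at 1.31 ± 0.28 (adjusted p over all probe sets = 0.0440), which averaged 4.38 in the GFP+ gate and 3.07 in the lectin-only gate, under the background level there. The chosen Cenpf probe set, 1427161_at, lay at 0.11 ± 0.43. For Prc1 the second probe set, 1423775_s_at, differed by 2.26 ± 0.22 in the GFP+ gate and 1.53 ± 0.22 in the lectin-only gate, both called. For Tpx2, 1428104_at was called in the GFP+ gate at 1.81 ± 0.45, where the chosen probe set was not. When the mean of all probe sets stood for each gene, 3 calls in the GFP+ gate were lost, those of Incenp, Ncapd2 (0.73, under 2-fold) and Top2a (0.40, adjusted p = 0.211). The other Ncapd2 probe set, 1430010_at, lay at -0.06, and the other Top2a probe sets, 1442454_at and 1427724_at, at 0.11 and -0.12. Hmmr (1.38), Cenpf (1.23), Cenpa (1.21), Kif23 (1.21), Bub1b (1.18), Bub1 (1.13) and Ttk (1.09) stayed called there at smaller differences. Against the columnar gate, the lectin-only gate lost Cenpf (0.68, adjusted p = 0.161), Ncapg (0.78), Cdc20 (0.77), Cenpa (1.09) and Kif11 (1.01). The mean added Cenpe (1.36) and Mki67 (1.76) in the GFP+ gate, and Aurkb (1.05) and Cenpe (1.10) in the lectin-only gate.

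Other lists of the cell cycle were read for comparison with the columnar gate. Of all genes, 5.88% rose and 5.33% fell on GFP+ arrays, and 6.47% rose and 2.38% fell on lectin-only arrays. Of 55 other mitosis genes, 25 rose (45.5%) and 0 fell in the GFP+ gate (median 1.18), and 9 rose (16.4%) and 0 fell in the lectin-only gate (median 0.82). Ckap2, a spindle protein, was among them, with 7.69, 8.45 and 7.95 on the GFP+ arrays, 7.31, 7.56 and 7.26 on the lectin-only arrays and 5.07, 5.85 and 6.01 on the columnar arrays. Its 3 gates did not overlap, and it was higher by 2.39 ± 0.28 in the GFP+ gate and 1.74 ± 0.28 in the lectin-only gate. Aspm, a protein of the spindle poles, was higher by 2.19 ± 0.35 in the GFP+ gate and 1.59 ± 0.35 in the lectin-only gate. Kifc1, a kinesin that gathers the poles, was higher by 2.15 ± 0.31 in the GFP+ gate and 1.41 ± 0.31 in the lectin-only gate.

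Of 33 genes of DNA replication and S phase, 10 rose (30.3%) and 1 fell in the GFP+ gate (median 0.90), and 5 rose (15.2%) and 1 fell in the lectin-only gate (median 0.53). Prim1, a primase subunit, was higher by 1.84 ± 0.22 in the GFP+ gate and 1.68 ± 0.22 in the lectin-only gate, and Mcm3, of the replicative helicase, by 1.90 ± 0.30 in the GFP+ gate and 1.23 ± 0.30 in the lectin-only gate. The gene that was lower was Gmnn, geminin, an inhibitor of replication licensing that is degraded at the end of mitosis. It had 8.28, 9.28 and 8.29 on the GFP+ arrays, 8.72, 9.48 and 8.97 on the lectin-only arrays and 10.34, 10.63 and 10.80 on the columnar arrays. All columnar arrays lay above all others, and the differences were -1.97 ± 0.31 (adjusted p = 0.00211) in the GFP+ gate and -1.53 ± 0.31 (adjusted p = 0.0110) in the lectin-only gate.

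Of 20 G1 cyclins, E2F and MuvB factors, 4 were higher in the GFP+ gate (20.0%, median 0.22) and 3 in the lectin-only gate (15%, median 0.20), with 0 lower. They were E2f1, an activator of S phase genes, at 1.64 ± 0.28 in the GFP+ gate and 1.63 ± 0.28 in the lectin-only gate, Mybl2, which encodes B-Myb, at 1.18 ± 0.26 in the GFP+ gate and 1.88 ± 0.26 in the lectin-only gate, and Rbl1, the pocket protein p107, at 1.12 ± 0.20 in the GFP+ gate and 1.05 ± 0.20 in the lectin-only gate. The MuvB subunit Lin9 was called at 1.01 ± 0.22 in the GFP+ gate and lay at 0.19 ± 0.22 in the lectin-only gate. Of 12 cell cycle inhibitors, 2 were higher in the GFP+ gate (16.7%) and 1 in the lectin-only gate (8.33%, near the share of all genes), with 0 lower. Cdkn1a, the Cdk inhibitor p21, had 10.72, 11.33 and 11.72 on the GFP+ arrays, 11.92, 11.62 and 12.11 on the lectin-only arrays and 9.62, 9.96 and 10.33 on the columnar arrays. It was thus lowest on the columnar arrays, with differences of 1.28 ± 0.29 (adjusted p = 0.0147) in the GFP+ gate and 1.91 ± 0.29 (adjusted p = 0.00244) in the lectin-only gate. Wee1, the kinase that restrains Cdk1, was higher in the GFP+ gate by 1.27 ± 0.16.

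By limma, none of 13 core subunits of the anaphase-promoting complex was called, 0 in the GFP+ gate (median 0.01, 2 with an unadjusted p under 0.05) and 0 in the lectin-only gate (median -0.02, 1 under 0.05). None of 10 cohesin genes was called either by limma, 0 in the GFP+ gate (median 0.38, 2 with an unadjusted p under 0.05) and 0 in the lectin-only gate (median 0.19, 0 under 0.05). Multiciliated cells are known to reuse cell cycle factors to amplify centrioles. Of 9 such genes 2 were lower in the GFP+ gate (22.2%) and 1 in the lectin-only gate (11.1%). Of all genes, 5.33% and 2.38% were called lower there. Deup1, a builder of deuterosomes, had 3.16, 4.70 and 5.41 on the GFP+ arrays, 6.52, 6.79 and 7.18 on the lectin-only arrays and 7.75, 8.22 and 8.13 on the columnar arrays, 3 ranges with no overlap. Its difference was -3.61 ± 0.48 for GFP+ minus columnar and -2.41 ± 0.48 (adjusted p = 0.0233) for GFP+ minus lectin-only. Deup1 was the only gene of these 7 lists called between the GFP+ and lectin-only gates. Foxn4, a transcription factor of multiciliated cells, lay at -2.23 ± 0.29 in the GFP+ gate and -1.21 ± 0.29 in the lectin-only gate, both called lower.

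**Figure D5:**
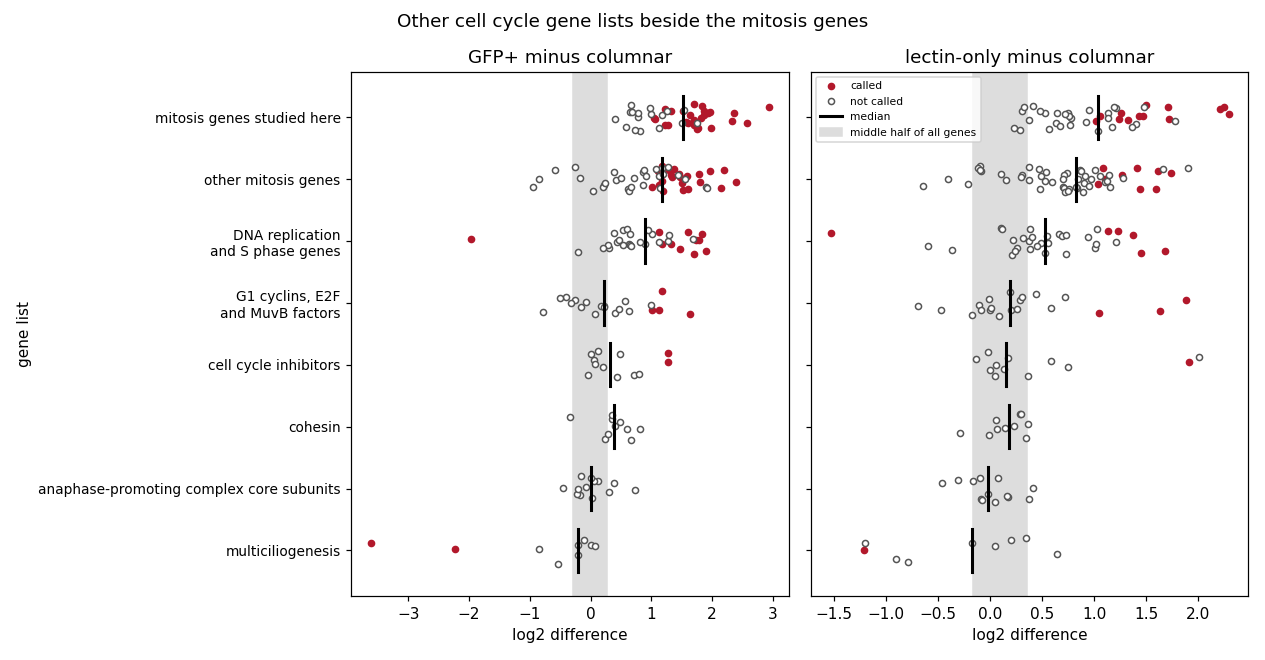
Log2 differences of single genes (points) in the mitosis genes studied here and in 7 other lists (rows), for GFP+ minus columnar (left) and lectin-only minus columnar (right, with its own axis range), with filled points for called genes, a bar at each list's median and grey for the middle 50% of all genes. The medians of the mitosis lists lie right of the grey range and those of the anaphase-promoting complex core lie within it.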

How the data were processed

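RNA of 9 samples, purified with the QIAGEN RNeasy micro kit and amplified and biotin-labelled with NuGEN reagents per the labels' protocols, was read on Affymetrix mouse arrays. The deposited values are log2 probe set signals that the authors made with RMA (background correction, normalization and summary), per the submitters' processing notes. The software version is not given in the sources used here. The arrays did not share 1 distribution, as quantile-normalized arrays would: the median was 5.44 on lectin-only replicate 3 and 4.91 to 5.16 on the others. Of 45101 probe sets, 64 were controls, and 34945 had 1 symbol (34741 matched by gene ID to a RefSeq table), 932 several and 9160 none. The probe set with the highest mean stood for each of 18193 genes.

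Gate means of all 9 arrays were fitted in R 4.3.3 by lmFit and eBayes of limma 3.58.1 (two-sided; residual degrees of freedom 6, prior 3.46). Adjusted p-values are limma's, by Benjamini-Hochberg over all genes, and errors of differences are limma's SE. The script was tested on simulated data. The number of arrays limits the precision, with a median SE of 0.24 over all genes. Every listed gene with a probe set was named, and genes of other lists by largest called change. The genes, lists and tests were chosen with earlier results of these data known. Alternatives changed the scaling, the choice of probe set, the model, the filter on dim probe sets and the arrays included.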

Additional observations from a re-analysis of the deposited data

How the results depend on the processing

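Under 18 alternatives, no called difference of a mitosis gene changed direction, and 16 of the 26 genes called in the GFP+ gate and 7 of the 13 called in the lectin-only gate stayed called under all 18. In the GFP+ gate against the columnar gate the count was 19 to 30 with 1 array left out and 18 to 28 under the others, with 0 lower throughout. In the lectin-only gate against the columnar gate the count was 8 to 16 with 1 array left out. It was 8 with values under background set to that level, although no member lies under it, and limma's prior degrees of freedom were then 0.486, against 3.46. The cause was not tested. It was 9 with arrays centred on their medians and 9 with a further quantile normalization, and centring put the median of all genes in this comparison at -0.17. Centring left the members' medians at 1.43 for GFP+ minus columnar, 0.80 for lectin-only minus columnar and 0.53 for GFP+ minus lectin-only. Deviations from the gate means, over genes, correlated at -0.0704 to 0.331 between same-numbered samples of different gates. Between differently numbered samples of different gates they correlated at -0.472 to 0.170. The highest correlations, 0.331, 0.327, 0.232 and 0.188, were all between same-numbered samples. The labels state no pairing, so the main fit did not use the numbers, and whether they pair the samples was not tested. With a replicate block, 28, 19 and 1 genes were called higher in those 3 comparisons, the last being Anln (adjusted p = 0.0346). The 3 arrays a gate limit what can be called, and the cause of single lost calls was not tested.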
